A study of Sus scrofa with 10 samples.

Results

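The genes described here encode the axoneme and the sperm tail. They are the rows of the count table whose names begin with CFAP, DNAH, DNAI, DNAL, DNAAF, RSPH, TEKT, ODF or SPAG followed by a number (or, for DNAL, by I), those that begin with ROPN1, and AKAP3 and AKAP4. The rule found 81 of 27376 rows, and 80 of them had counts, since CFAP73 stood at 0 in every library. The axoneme is the microtubule core of motile cilia and of the sperm tail. Dynein arms on its doublets drive the beat, and radial spokes and the central apparatus control it. Spermatids build the tail after meiosis and wrap the axoneme in outer dense fibres and a fibrous sheath, which other motile cilia lack, while several axoneme genes are also used by ciliated epithelia and some members serve non-motile cilia, centrosomes or the spindle in dividing cells.

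Pig (Sus scrofa) polyA RNA was counted per gene with QuantSeq, which reads the 3′ ends of transcripts, in 10 libraries. GF grafts (n = 4) came from germ cells and testicular fibroblasts of the pig, and FO grafts (n = 4) from the fibroblasts alone. Per the labels, the primary cells of both were injected with concentrated Matrigel into the dorsal skin of a SKID mouse and grew there for 6 months, and no further treatment or genetic change is labelled. The control libraries (n = 2) are of testis tissue titled 5D, a code the labels do not explain, so their age is not known here. The labels give them the same cell type and growth text as the GF grafts, and the title was used. The design asks whether germ cells in the graft influence how testis tissue is remodelled. Nothing in the labels ties each replicate to its own animal or culture. The p-values therefore describe the spread between these samples only, which may be technical.

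Total counts ranged from 2915534 (GF 3) to 7013911 (control 2), and 3 counts in a single library correspond to 0.452 to 1.04 CPM, the TMM-scaled read abundance used throughout. GF 3 and GF 4 had the lowest totals. Of the 6981 to 7022 genes with a median of at least 20 CPM in the other libraries, 13 in GF 3 and 21 in GF 4 had no count, against 0 to 5 in each other library. The germ cell markers DDX4 and DAZL were higher in GF than in FO (5.78 ± 0.48, adjusted p = 5.53e-05, and 5.44 ± 0.77, adjusted p = 0.000556). They belong to a list of 8 spermatogonial markers, of which 7 were tested. Of these 4 were higher in GF, 0 lower and 3 did not pass, with a median log2 fold change of 1.69, where 17.6% of all genes tested were higher. Markers of spermatids (10 genes, among them PRM1, TNP1 and ACR) summed to 206, 1107, 2519.8 and 457 CPM in GF 1 to GF 4, 1.05 to 6.68 CPM in FO, with 4.61 and 2.87 CPM in the control libraries. FO 1 and GF 3 also held skeletal muscle transcripts, 983 and 329 CPM summed over 13 genes, while no other library passed 48.9 CPM. Counts were made on pig genes, and how reads of the mouse host were treated is not given in the sources used here. A lower level can come from fewer cells of a type or from less RNA per cell, and bulk RNA cannot tell them apart.

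**Figure D1:**
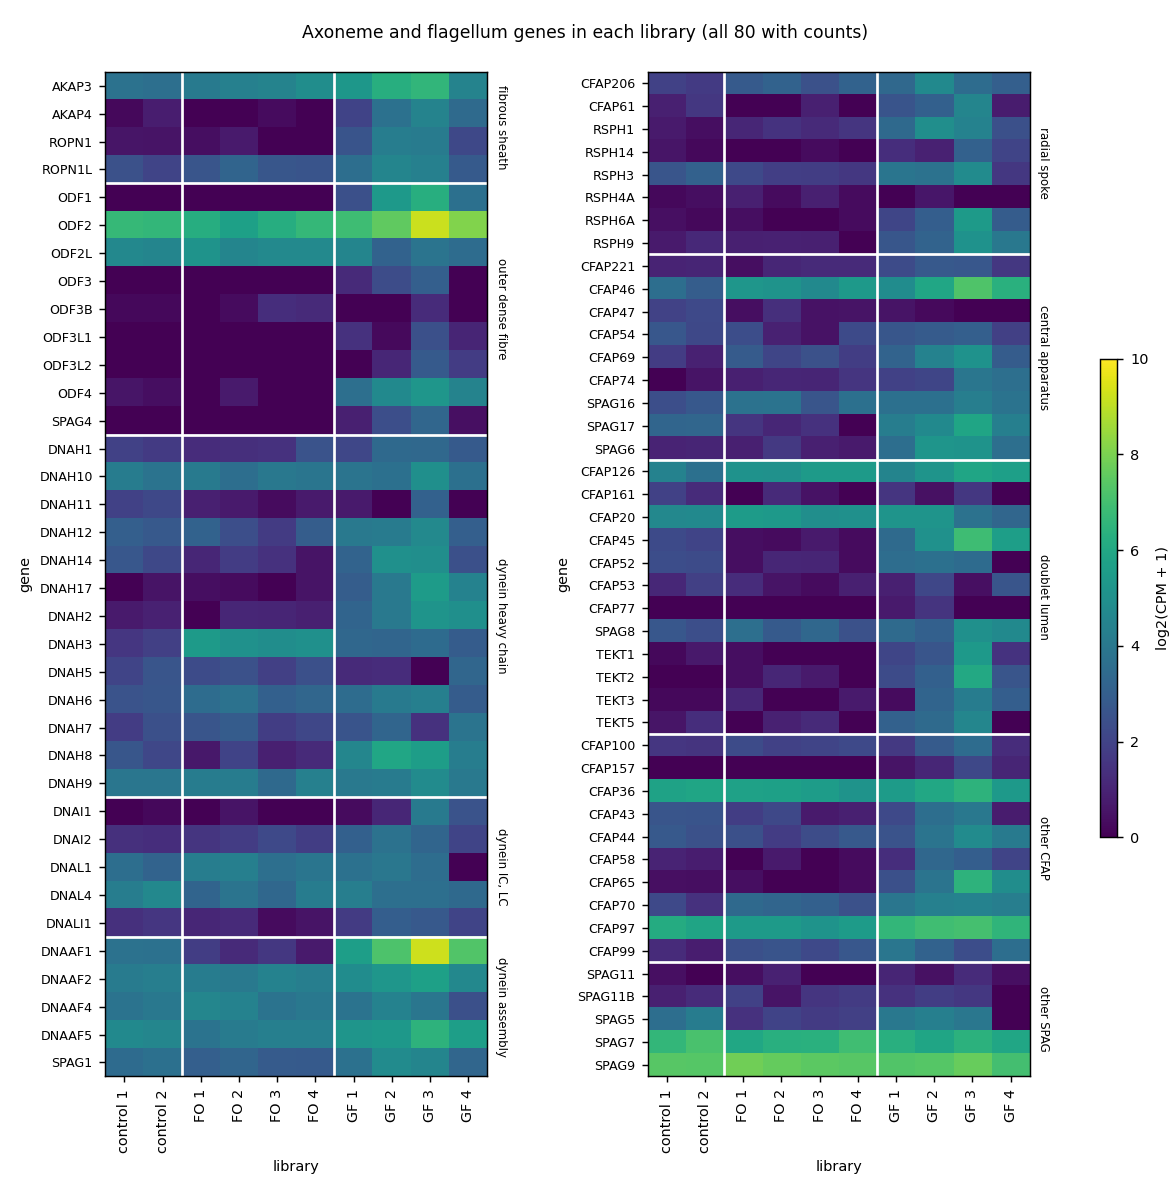
Level of each of the 80 axoneme and flagellum genes with counts (rows, grouped by role) in the 10 libraries (columns), as log2(CPM + 1). ODF1 is at the dark end of the scale, 0, in all control and FO columns and reaches 76.8 CPM in GF 3, while DNAH3 is brightest in the FO columns.

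Transcripts of the fibrous sheath, the outer dense fibres, the dynein arms, the radial spokes and the central apparatus were higher in GF grafts than in FO grafts for part of each set, and a subset was all but missing from FO. Of the 81 genes, 8 had 0 counts over the 4 FO libraries and 7 had 1 to 3, against 1 (CFAP73) and 2 over the GF libraries. By library, 17, 14, 17 and 20 of the 80 with counts were at 0 in FO 1 to FO 4, and 3, 2, 4 and 12 in GF 1 to GF 4. Of all 27376 rows, 17143, 17769, 17845 and 17411 had counts in FO 1 to FO 4, and 18256, 18112, 15977 and 14680 in GF 1 to GF 4. Counts pooled over a group were not compared in this way for all genes. Of the 80 genes with counts, 57 passed the filter on low counts for GF versus FO. Of these 57, 32 were higher in GF and 1, DNAH3, was lower (edgeR, adjusted p under 0.05), where 17.6% of all 13782 genes tested were higher and 13.0% lower. Without the filter all 80 were tested, and 44 were higher and 1 lower, with 2810 and 1797 of all 21513 genes. With the control libraries in the fit 74 were tested, and 46 were higher and 2 lower, with 3257 and 2228 of all 15877 genes, so that most genes given below as not tested entered those fits. With total counts in place of TMM scaling, 69.1% of the calls over all genes were higher, against 57.5%, and the median of all genes moved from -0.02 to 0.13 on the log2 scale, while 33 axoneme and flagellum genes were higher. The median log2 fold change was 1.57 over the 57 and -0.02 over all genes tested, and over the 80 without the filter it was 1.79, with 0.01 over all genes. Genes near 0 in FO could pass the filter only through their GF level. The 4 GF libraries lay above all 4 FO libraries for 26 of the 32, and the groups overlapped for AKAP3, CFAP44, CFAP46, DNAH12, DNAI2 and RSPH3. Among all genes tested, 17.8% had GF wholly above FO.

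**Figure D2:**
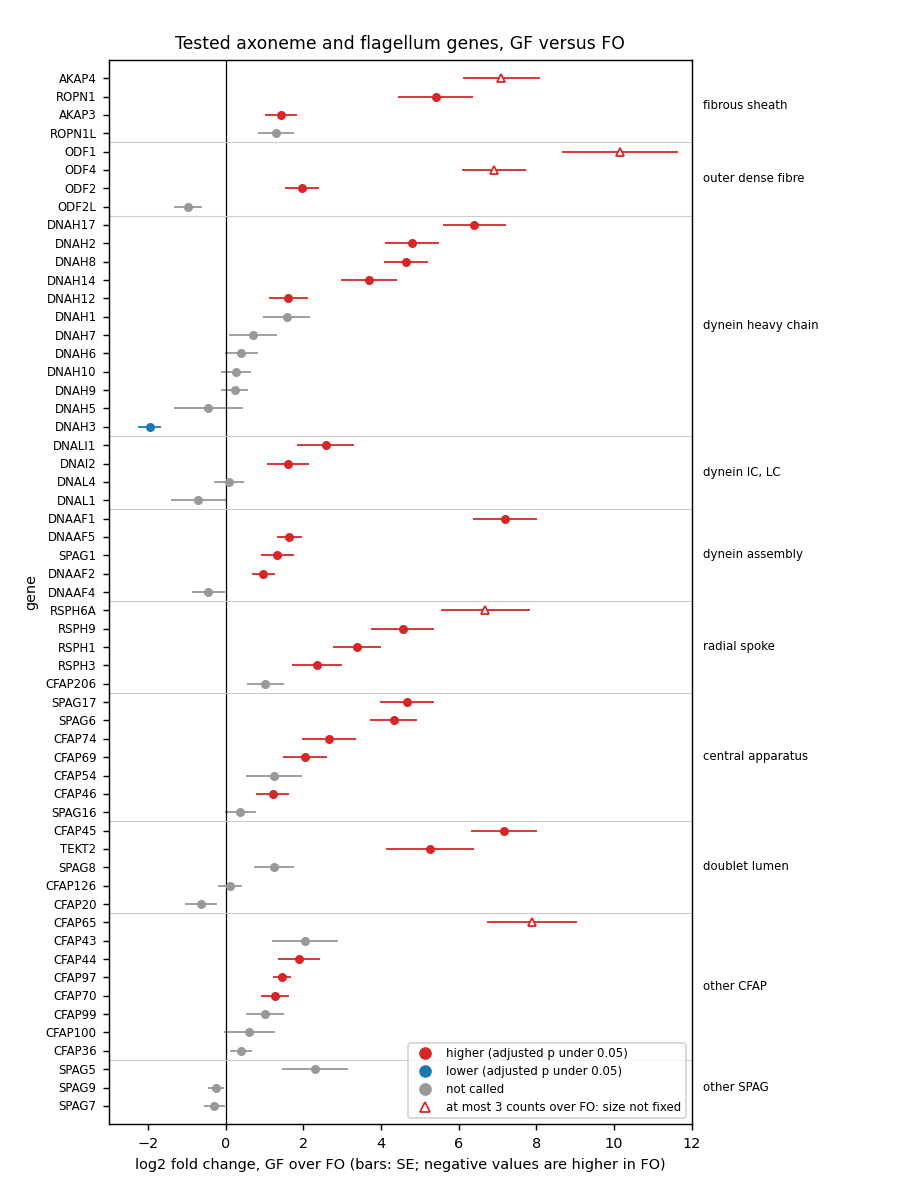
log2 fold change of GF over FO with its SE (bars) for the 57 genes tested, grouped by role, with called genes in colour. Open triangles mark genes with at most 3 counts over the 4 FO libraries, whose fitted size is not fixed by the data. DNAH3 at -1.96 is the lone gene called lower.

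The fibrous sheath and the outer dense fibres are particular to sperm. Of 4 sheath genes, 4 were tested and 3 were higher in GF than in FO, and of 9 genes of the dense fibres and their attachment, 4 were tested and 3 were higher. ODF1 (chr4:34511077-34520601 on Sscrofa11.1), a main protein of the outer dense fibres, had 21, 228, 223 and 35 counts in GF 1 to GF 4 and 0 in all FO and control libraries. GF 2 and GF 3 held most of these counts, and every GF library was above every other library. Set against 3 counts over the group, ODF1 was at least 187-fold higher in GF than in FO (adjusted p = 0.00144) and at least 134-fold higher than in control testis (adjusted p = 0.00463). Without control 1 or control 2 the second bound was 69.9-fold or 64.1-fold, since it then rests on 1 library, and without GF 3 and GF 4 together ODF1 did not pass against control testis (adjusted p = 0.0739). AKAP4 (chrX:43885584-43895142), the main scaffold of the fibrous sheath, had 14, 69, 62 and 29 counts in GF, 0, 0, 1 and 0 in FO 1 to FO 4 and 1 and 5 in the control libraries. In pooled counts it was 192-fold higher (34.1 to 7640) in GF than in FO (adjusted p = 0.000527), and without FO 3, which held the lone FO count, at least 46.8-fold higher. The range after each ratio of pooled counts is its exact 95% interval. Intervals and bounds cover counting error only, and reads without molecular identifiers are not independent molecules.

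ODF4 (chr12:53517175-53525458), another dense fibre protein, had 54, 142, 107 and 61 counts in GF and 0, 3, 0 and 0 in FO, and with an adjusted p of 0.000254 it was 134-fold higher (45.5 to 653). All 3 FO counts lay in FO 2, and without it ODF4 was at least 99.2-fold higher. ROPN1 (chr13:136395628-136428170), the sheath protein ropporin, stood at 5.13, 17.8, 16.9 and 3.45 CPM in GF 1 to GF 4 and 0.278, 0.651, 0 and 0 CPM in FO 1 to FO 4 (log2 fold change 5.41 ± 0.96, adjusted p = 0.00178), and leaving out FO 2 moved its value to 6.66. Its relative ROPN1L was present in every library, at 14.8 ± 7.41 CPM in GF (SD, n = 4), 6.01 ± 1.5 CPM in FO (n = 4) and 3.89 ± 1.02 CPM in control testis (n = 2), and did not pass against FO (1.30 ± 0.46, adjusted p = 0.0506). It passed without GF 4 (adjusted p = 0.0113) or GF 1 (0.0472), with DESeq2 (0.019), with the control libraries in the fit (0.0397), and with total counts (0.0373) or RLE factors (0.0487) as scaling.

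AKAP3, the scaffold that precedes AKAP4 in the sheath, was also present in all groups. It stood at 38.7, 75.1, 94.4 and 21.4 CPM in GF, 16.1, 19.3, 21.1 and 29 CPM in FO, with 12.7 and 11.5 CPM in the control libraries. The lowest GF library, GF 4, lay within the FO range, and all GF libraries lay above both controls. AKAP3 was higher in GF than in FO (1.43 ± 0.42, adjusted p = 0.0226), a call that ended without FO 1, FO 2, FO 3, GF 2 or GF 3 (adjusted p up to 0.0738). On the pig assembly AKAP3 overlaps DYRK4, and how strand was used in counting is not given in the sources used here. In all, 31 of the 81 genes overlap another gene of the RefSeq table, so their counts are uncertain to that extent. AKAP4, DNAAF1, DNAH17, RSPH1 and RSPH6A are among the 31, while ODF1, ODF4 and CFAP45 are not.

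ODF2, a dense fibre protein that also has forms at the centrosome, was abundant in every library. It stood at 117, 190.1, 586 and 273 CPM in GF, 74.6, 51, 74.1 and 101 CPM in FO, with 102 and 97.9 CPM in control testis. The lowest GF library was above the highest of FO. ODF2 rose in GF against FO (1.97 ± 0.44, adjusted p = 0.00598), with GF 3 far above the others, and without GF 3 the value was 1.35 (adjusted p = 0.0108). Its namesake ODF2L, a centrosomal protein, did not pass, at 13.6 ± 6.3 and 26.7 ± 5.23 CPM in GF and FO (-0.96 ± 0.36, adjusted p = 0.0596), but was lower in GF with DESeq2 (adjusted p = 0.0322), with the control libraries in the fit (0.0396) and without GF 1 (0.014, log2 fold change -1.33). The other 5 genes of the group were too low to be tested in GF versus FO. ODF3 had 6, 22, 21 and 0 counts in GF 1 to GF 4, ODF3L1 8, 1, 13 and 3, ODF3L2 0, 6, 18 and 7 and SPAG4, a nuclear envelope protein that binds ODF1, 4, 24, 26 and 1. All 4 were at 0 in the FO and control libraries. ODF3B had 0 to 7 counts in every library.

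Of the axonemal dynein heavy chains, the motor subunits, 13 are in the table and 12 were tested for GF versus FO, of which 5 were higher, 1 was lower and 6 did not pass. DNAH17 (chr12:3485166-3590325), an outer arm chain of the sperm tail, stood at 6.63, 15.7, 43.4 and 20.7 CPM in GF 1 to GF 4, 0.278, 0.217, 0 and 0.423 CPM in FO 1 to FO 4 and 0 and 0.452 CPM in the control libraries. Its GF and FO ranges lay far apart (6.40 ± 0.81, adjusted p = 0.000328), and without GF 3 the value was 5.80. DNAH8, the other outer arm chain of the sperm tail, stood at 23.1, 59.3, 46.9 and 17.9 CPM in GF, 0.556, 3.04, 0.837 and 1.27 CPM in FO, with 5.43 and 3.32 CPM in control testis. The order was GF, control and FO, with no overlap between the 3 groups, and GF was higher than FO (4.64 ± 0.58, adjusted p = 0.000307, 5.32 without FO 2). DNAH2, an inner arm chain, stood at 8.34, 15.5, 34.8 and 30.7 CPM in GF and 0, 1.09, 1.05 and 0.846 CPM in FO (4.80 ± 0.70, adjusted p = 0.000665). DNAH14 (3.69 ± 0.73, adjusted p = 0.00316) and DNAH12 (1.61 ± 0.50, adjusted p = 0.0295) also rose, the latter with overlapping groups and a call that ended without FO 2, FO 3, FO 4, GF 2 or GF 3 (adjusted p up to 0.0804).

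The outer arm chains known from airway cilia did not pass or were not tested. DNAH9 stood at 15.6, 16.8, 27.2 and 15.5 CPM in GF and 17.5, 17.4, 9.63 and 19.7 CPM in FO (0.23 ± 0.35, adjusted p = 0.647), and at 14.3 and 14 CPM in the control libraries. DNAH5, its partner, had 6, 8, 0 and 26 counts in GF and 14, 21, 13 and 21 in FO (-0.45 ± 0.89, adjusted p = 0.73), and DNAH11 was too low to be tested, with 3, 0, 22 and 0 counts in GF and 3, 3, 1 and 3 in FO. The difference between these chains and DNAH8 or DNAH17 was not tested. The inner arm chains DNAH1 (1.57 ± 0.61, adjusted p = 0.0683), DNAH6 (0.41 ± 0.42, adjusted p = 0.484), DNAH7 (0.71 ± 0.62, adjusted p = 0.405) and DNAH10 (0.27 ± 0.39, adjusted p = 0.634) did not pass, though DNAH1 passed with DESeq2 (adjusted p = 0.0344), without FO 4 (2.21, adjusted p = 0.0367) and without GF 1 (0.046).

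DNAH3 (chr3:24911160-25127017), an inner arm chain, went the other way. It stood at 42.6, 32.1, 29.3 and 31.1 CPM in FO 1 to FO 4, 9.2, 8.47, 10.3 and 6.56 CPM in GF 1 to GF 4 and 1.97 and 2.71 CPM in the control libraries. The 3 groups did not overlap, with FO highest and control lowest. DNAH3 was lower in GF than in FO (-1.96 ± 0.29, adjusted p = 0.000746) and higher than control testis in FO (3.83 ± 0.43, adjusted p = 7.72e-05) and in GF (1.87 ± 0.41, adjusted p = 0.00503). The FO calls held without any single library, with values of -2.06 to -1.82 against GF and 3.61 to 4.06 against control testis, while that of GF against control testis ended without control 1, without control 2 or with the FO libraries out of the fit (adjusted p up to 0.0912). The comparisons share libraries, so they are not independent of each other. No other gene of the RefSeq table overlaps DNAH3.

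Dynein arms also hold intermediate and light chains, of which 2 of 4 tested were higher in GF than in FO. DNAI1, an outer arm intermediate chain, had 1, 6, 48 and 14 counts in GF and 0, 2, 0 and 0 in FO, too few to be tested, and most of them lay in GF 3. In pooled counts DNAI1 was 38.1-fold higher (10.2 to 321) in GF, 14.2-fold higher (3.46 to 125) without GF 3 and at least 18.8-fold higher without FO 2. Its partner DNAI2 stood at 7.27, 12.8, 8.61 and 3.11 CPM in GF and 1.95, 2.39, 3.56 and 2.54 CPM in FO. It rose (1.60 ± 0.54, adjusted p = 0.0424), but the groups overlapped and the call ended without any of 7 of the 8 graft libraries (adjusted p up to 0.134, without GF 2), as well as with no filter on low counts (adjusted p = 0.0735). DNALI1, an inner arm light chain, rose (2.58 ± 0.73, adjusted p = 0.0196), a call that ended without FO 1, FO 3, FO 4 or GF 2 (adjusted p up to 0.0682). DNAL4 did not pass (0.09 ± 0.39, adjusted p = 0.873), nor did DNAL1 (-0.70 ± 0.70, adjusted p = 0.477), which had 58, 81, 32 and 0 counts in GF 1 to GF 4 and 65, 87, 56 and 66 in FO. GF 4 was without a DNAL1 count where each other library had at least 32.

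Assembly factors build dynein arms in the cytoplasm before they enter the tail, and 4 of 5 were higher in GF than in FO. DNAAF1 (chr6:4457283-4483641) stood at 47.3, 145, 596 and 157 CPM in GF 1 to GF 4, 2.5, 1.3, 2.09 and 0.634 CPM in FO 1 to FO 4 and 12.7 and 12.2 CPM in the control libraries. The 3 groups did not overlap, with GF highest and FO lowest. It rose in GF against FO (7.19 ± 0.82, adjusted p = 0.000202, 6.15 without GF 3). DNAAF5 rose by less, from 16.9 ± 2.71 to 52.7 ± 23.6 CPM (1.64 ± 0.33, adjusted p = 0.00349), as did DNAAF2 (0.96 ± 0.30, adjusted p = 0.0289) and SPAG1 (1.33 ± 0.42, adjusted p = 0.0316), another assembly factor. The last 2 calls ended without several single libraries (adjusted p up to 0.0816 for DNAAF2, without FO 2, and 0.0999 for SPAG1, without GF 2). Leaving out FO 1, FO 2, FO 4, GF 2 or GF 3 ended both calls, and FO 3 that of SPAG1. DNAAF4, at 13 ± 6.53 CPM in GF and 17.9 ± 4.58 CPM in FO, did not pass (-0.45 ± 0.43, adjusted p = 0.45).

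**Figure D3:**
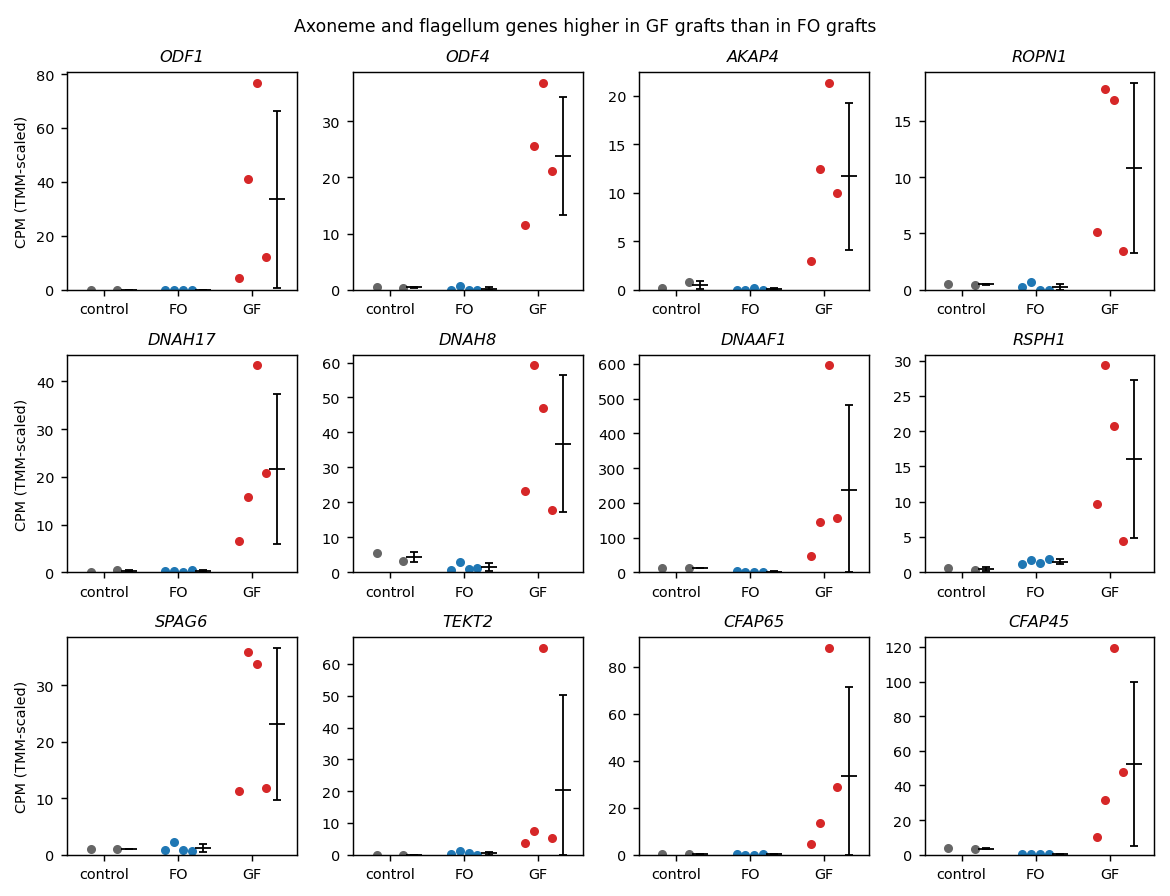
CPM (TMM-scaled) of 12 genes in each library (points), by group (control n = 2, FO n = 4, GF n = 4), with the mean and SD as black bars, cut at 0 where the SD exceeds the mean. All 4 GF points lie above all FO points in each panel, and GF 3 is the highest for 8 of the 12.

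Radial spokes link the doublets to the central apparatus, and 4 of 5 tested spoke genes were higher in GF than in FO. RSPH1, a head protein of the spokes, stood at 9.63, 29.4, 20.7 and 4.49 CPM in GF, 1.11, 1.74, 1.26 and 1.9 CPM in FO, with 0.658 and 0.302 CPM in control testis, and rose in GF against FO (3.39 ± 0.62, adjusted p = 0.00204). Its partner RSPH9 rose (4.56 ± 0.82, adjusted p = 0.00194, 3.85 without GF 3), as did the stalk protein RSPH3 (2.36 ± 0.64, adjusted p = 0.0164), whose GF 4 library lay slightly below the lowest of FO and whose call ended without FO 4 (adjusted p = 0.0508). The head protein has paralogs, RSPH6A of the sperm tail and RSPH4A of other motile cilia. RSPH6A had 15, 38, 123 and 19 counts in GF and 1, 0, 0 and 1 in FO and with an adjusted p of 0.00152 it was 108-fold higher (29.4 to 896). GF 3 held most of these, and RSPH6A was 48.6-fold higher (13 to 409) without it and 172-fold higher (30.5 to 6820) without FO 1. RSPH4A had at most 4 counts in any library, with 3 over GF and 9 over FO, and was not tested. RSPH14 was not tested either, with 7, 5, 22 and 9 counts in GF and 1 over FO. Of 2 further spoke proteins, CFAP206 did not pass (1.02 ± 0.47, adjusted p = 0.119), and CFAP61, with 24, 41, 66 and 2 counts in GF and 0, 0, 4 and 0 in FO, was not tested.

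In the central apparatus, which holds the central pair of microtubules, 5 of 7 tested genes were higher in GF than in FO. SPAG6 stood at 11.3, 35.9, 33.8 and 11.7 CPM in GF and 0.835, 2.17, 0.837 and 0.634 CPM in FO (4.33 ± 0.60, adjusted p = 0.000522). SPAG17, which binds SPAG6, stood at 17.8, 25.6, 57.5 and 19 CPM in GF, 1.95, 1.09, 1.67 and 0 CPM in FO, with 8.72 and 8.9 CPM in the control libraries, so that both were wholly above FO in GF (4.67 ± 0.70, adjusted p = 0.000746). The third of these partners, SPAG16, was at 13.8 ± 3.02 and 10.7 ± 3.65 CPM in GF and FO and did not pass (0.38 ± 0.39, adjusted p = 0.494). CFAP69 (2.04 ± 0.58, adjusted p = 0.0191), CFAP74 (2.66 ± 0.70, adjusted p = 0.0143) and CFAP46 (1.21 ± 0.42, adjusted p = 0.0464) rose. The call of CFAP46 ended without FO 1, FO 2, FO 3, FO 4, GF 3 or GF 4 (adjusted p up to 0.159) and with libraries thinned to the lowest total (0.0537). CFAP69 lost the call without FO 2, FO 4 or GF 3 (up to 0.059) and CFAP74 without FO 1 (0.0521). CFAP54 did not pass (1.24 ± 0.72, adjusted p = 0.211), and CFAP47 and CFAP221 were not tested.

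Among proteins bound inside the doublets, 2 of 5 tested were higher in GF than in FO. Tektins are filament proteins of this set, and 4 are in the table. TEKT2 stood at 3.85, 7.39, 65.1 and 5.18 CPM in GF, 0.278, 1.09, 0.628 and 0 CPM in FO, with 0 in both control libraries, and rose in GF against FO (5.26 ± 1.13, adjusted p = 0.00483). GF 3 lay far above the other libraries, and without it the value was 3.36 (without FO 2, 5.95). TEKT1 had 15, 29, 122 and 5 counts in GF and 1 over FO, in FO 1, and was 189-fold higher (33.5 to 7510) in pooled counts, 66.1-fold higher (11.3 to 2660) without GF 3 and at least 50.2-fold higher without FO 1. TEKT3 had 1, 46, 51 and 20 in GF and 4, 0, 0 and 3 in FO, and TEKT5 had 36, 56, 67 and 0 in GF and 0, 4, 6 and 0 in FO. These 3 did not reach the filter in enough libraries to be tested. Of the other doublet proteins, CFAP45 (chr4:90593864-90626660) stood at 10.1, 31.9, 119.6 and 47.6 CPM in GF, 0.278, 0.217, 0.628 and 0.211 CPM in FO, with 3.78 and 3.17 CPM in control testis. Its 3 groups did not overlap, and it rose in GF against FO (7.16 ± 0.85, adjusted p = 0.000248, 6.34 without GF 3). CFAP52, often found with CFAP45, had 51, 67, 30 and 0 counts in GF and 1, 5, 5 and 1 in FO and was not tested. CFAP126 at 41.1 ± 15.9 and 38.1 ± 5.75 CPM (0.11 ± 0.32, adjusted p = 0.812), CFAP20 (-0.64 ± 0.41, adjusted p = 0.259) and SPAG8 (1.25 ± 0.52, adjusted p = 0.0874, passing without GF 2 at an adjusted p of 0.0381) did not pass. CFAP53, CFAP77 and CFAP161 had at most 19 counts in any library and were not tested.

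Of the other CFAP genes, 8 were tested and 4 were higher in GF than in FO. CFAP65, needed for the tail and the acrosome, stood at 4.49, 13.3, 88.2 and 29 CPM in GF 1 to GF 4 and had 1, 0, 0 and 1 counts in FO 1 to FO 4 and 2 and 2 in the control libraries. It was 240-fold higher (66.1 to 1990) in GF than in FO (adjusted p = 0.000662), 121-fold higher (32.9 to 1000) without GF 3 and 383-fold higher (68.4 to 15200) without FO 1. CFAP97 was present throughout and rose from 40.7 ± 4.42 to 111 ± 19.2 CPM (1.45 ± 0.22, adjusted p = 0.000865). CFAP70 (1.27 ± 0.36, adjusted p = 0.0204) and CFAP44 (1.88 ± 0.54, adjusted p = 0.0216), which tethers an inner dynein arm, rose. These 2 calls ended without FO 3 or FO 4 for CFAP70 (adjusted p up to 0.0572) and without FO 1, FO 2, FO 3 or GF 3 for CFAP44 (up to 0.0658). CFAP43, the partner of CFAP44, did not pass (2.04 ± 0.85, adjusted p = 0.0883) but did without GF 4 (adjusted p = 0.0222) and with DESeq2 (0.0461). CFAP36 (0.39 ± 0.29, adjusted p = 0.324), CFAP99 (1.01 ± 0.48, adjusted p = 0.129, adjusted p = 0.0471 without GF 3) and CFAP100 (0.61 ± 0.66, adjusted p = 0.511) did not pass. CFAP58, with 7, 51, 20 and 9 counts in GF and 0, 3, 0 and 1 in FO, and CFAP157, with 2, 6, 10 and 3 in GF and 0 elsewhere, were not tested.

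Some members carry a sperm-associated name but have other known uses, and 0 of the 3 of these that were tested in GF versus FO passed with edgeR. At an unadjusted p under 0.05 the count was 1, SPAG5, and with DESeq2 it was also 1, SPAG5. SPAG9, a scaffold of kinase signalling and transport, was at 162 ± 30.2 and 193 ± 24.5 CPM in GF and FO (-0.25 ± 0.21, adjusted p = 0.403), and SPAG7 was at 70.0 ± 13.3 and 85.6 ± 26.2 CPM (-0.29 ± 0.26, adjusted p = 0.424). SPAG5, a protein of the mitotic spindle, stood at 15.2, 19.1, 14.5 and 0 CPM in GF, 1.67, 3.04, 2.3 and 2.75 CPM in FO, with 11.2 and 17.3 CPM in the control libraries. The absence of counts in GF 4 set it apart from the other GF libraries, and SPAG5 did not pass with it (2.31 ± 0.85, adjusted p = 0.0575) but did without it (2.73, adjusted p = 0.000915) and with DESeq2 (0.0186). Of 6 cell division genes, 6 were higher in GF than in FO, and GF 4 had the lowest GF sum of them (239.8, 327, 413 and 155 CPM in GF 1 to GF 4). Their part in the SPAG5 values was not tested. SPAG11 and SPAG11B, defensin-like genes known from the epididymis, had at most 14 counts in any library and were not tested.

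The GF libraries differed among themselves. Of the 32 genes higher in GF than in FO, GF 3 was the highest of the 4 libraries for 24 and GF 2 for 8, and GF 1 was the lowest for 20 and GF 4 for 12. The highest GF library was 5.09 times the lowest at the median of the 32. The summed level of all axoneme and flagellum genes was 1199, 1859, 3569 and 1514 CPM in GF 1 to GF 4, 912, 850.3, 787 and 904 CPM in FO 1 to FO 4 and 858 and 871 CPM in the control libraries. The spermatid markers had the same order in GF, with GF 3 highest and GF 1 lowest. Abundant genes weigh most in the axoneme and flagellum sum, among them SPAG9 and SPAG7, which have other known uses. Their means were 166 and 119 CPM in control testis, 193 and 85.6 CPM in FO and 162 and 70.0 CPM in GF. In GF 3, DNAAF1 stood at 596 CPM and ODF2 at 586 CPM. The sum is therefore not a level of tail genes alone. GF 3 also carried the skeletal muscle counts given above, and their part was not tested. Without GF 3, 58 axoneme and flagellum genes were tested and 25 were higher in GF, with 2150 of all 14119 genes. Without GF 3 and GF 4 together 63 were tested and 39 were higher, with 2827 of all 14714. FO 1 and GF 3 are the pair that held the muscle counts. With both left out, 57 were tested and 20 were higher, with 1369 of all 13948. Of the 32 calls, 20 held without any single library.

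**Figure D4:**
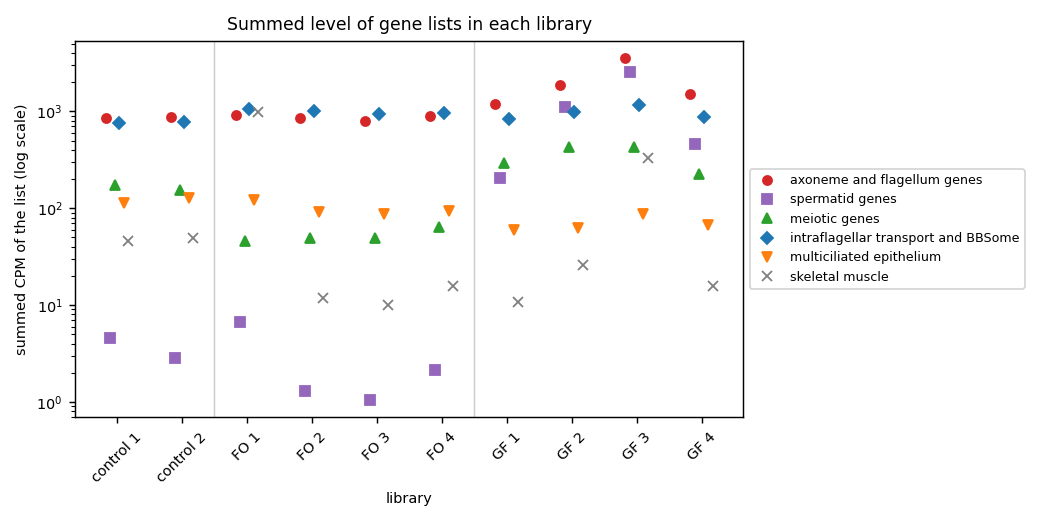
Summed CPM (log scale) of the axoneme and flagellum genes and of 5 other lists in each library. Abundant genes weigh most in each sum. The axoneme and flagellum sum is highest in GF 3, as is the spermatid sum, and multiciliated epithelium genes lie lower in GF 1, GF 2 and GF 4 than in every FO and control library.

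The other genes of the pathway came from lists that share no gene with the rule, and single libraries were not left out in turn for them. A list of further axoneme proteins and assembly factors held 54 gene names, with some genes under both an older and a newer name, such as CCDC114 and ODAD1. Of these names 48 were in the table and 36 were tested. Of the 36, 22 were higher in GF than in FO, 0 lower in edgeR (0 also at an unadjusted p under 0.05) and 14 did not pass. The median log2 fold change was 2.07. DRC7, of the complex that links neighbouring doublets, had 43, 130, 119 and 112 counts in GF and 1, 2, 2 and 4 in FO (5.72 ± 0.62, adjusted p = 0.000144). HYDIN, of the central apparatus, rose (3.51 ± 0.59, adjusted p = 0.0013), as did AK8 (4.05 ± 0.69, adjusted p = 0.00149). Of 20 genes of tail accessory structures and tail assembly, 13 were tested and 7 were higher. FSIP2, a fibrous sheath protein, stood at 91.3, 291, 421 and 118 CPM in GF and 1.11, 2.6, 0.209 and 0 CPM in FO (7.86 ± 0.81, adjusted p = 0.000118), and SPA17, which like the ropporins has a domain that docks to AKAP proteins, at 68.5 ± 35.8 and 5.04 ± 1.16 CPM (3.76 ± 0.42, adjusted p = 0.000179). Intraflagellar transport and the BBSome serve cilia of nearly all cell types. Of their 28 tested genes, 4 were higher and 2 lower, where 17.6% and 13.0% of all genes tested were. The other 22 did not pass, and the median of the 28 was -0.12. IFT140 was among the higher (1.65 ± 0.37, adjusted p = 0.00611) and KIFAP3 among the lower (-0.98 ± 0.32, adjusted p = 0.0357). The difference between the lists was not tested.

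Motile cilia genes are under the control of RFX factors and FOXJ1, and spermatid genes under that of CREM. Of a list of 15 such regulators, 9 were tested in GF versus FO, of which 4 were higher, 1 was lower and 4 did not pass. RFX2 stood at 13.5, 27.4, 55.1 and 18.3 CPM in GF, 1.67, 1.52, 2.09 and 1.27 CPM in FO, with 1.15 and 1.06 CPM in the control libraries, and rose in GF against FO (4.10 ± 0.53, adjusted p = 0.000344). RFX4 (6.57 ± 0.77, adjusted p = 0.000227), RFX1 (1.52 ± 0.38, adjusted p = 0.0101) and CREM (0.86 ± 0.27, adjusted p = 0.0326) also rose, while RFX3 fell (-0.80 ± 0.24, adjusted p = 0.0261). FOXJ1 had 6, 13, 3 and 0 counts in GF, 0, 1, 0 and 2 in FO and 5 and 2 in the control libraries and was not tested. Markers of multiciliated epithelium, another cell type with motile axonemes, were 10 genes in the table. Of these SNTN was at 0 in all 10 libraries, PIFO had 2 counts and MCIDAS 1 count over all of them, and the list summed to 60.1 to 87.9 CPM in GF, 87.9 to 121 CPM in FO, with 113 to 127 CPM in control testis. Of its 4 tested genes DEUP1 (-1.52 ± 0.28, adjusted p = 0.00206) and CAPS (adjusted p = 0.0187) fell in GF and 0 rose in edgeR (0 also at an unadjusted p under 0.05).

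Against control testis, GF grafts were again higher in genes of the tail. Of the 80 genes with counts, 74 were tested, and 35 were higher in GF and 1, CFAP47, lower, where 14.0% and 11.8% of all 15877 genes tested were. The median was 1.88 over the 74 and 0.03 over all genes tested. This comparison shares its GF libraries with the one above, and an unknown age of the control tissue cannot be told apart from the effect of grafting. It also rests on 2 control libraries. Without control 1 or control 2 fewer of these genes were called higher in GF, in fits where the lone control library is assumed to vary like the other groups. Calls over all genes became fewer in those fits too. With the FO libraries out of the fit, 72 of the axoneme and flagellum genes were tested. Of these 21 were higher and 0 lower, with 1216 and 985 of all 15248 genes. GF lay wholly above both controls for 45 of the 74 genes and wholly below for 2, with 21.9% and 25.3% over all genes tested. By role, the higher genes were 4 of 4 of the fibrous sheath, 4 of 7 of the dense fibres, 4 of 7 of the spokes, 5 of 9 of the central apparatus, 6 of 11 of the doublet lumen, 4 of 13 heavy chains, 2 of 5 intermediate and light chains, 2 of 5 assembly factors and 4 of 9 other CFAP genes. In all, 8 of the 35 calls held without any single library, those of CFAP46, CFAP65, DNAH17, DNAH2, ODF1, ODF4, RSPH1 and SPAG6.

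Of those 8, ODF4 had 3 and 2 counts in the control libraries and was higher in GF (5.81 ± 0.96, adjusted p = 0.000959), as were SPAG6 at 0.987 and 1.06 CPM in control testis (4.47 ± 0.78, adjusted p = 0.0014), RSPH1 (5.00 ± 0.92, adjusted p = 0.00183, 5.59 without control 1), DNAH2 (4.78 ± 0.89, adjusted p = 0.00207), CFAP46 (3.14 ± 0.58, adjusted p = 0.00192) and CFAP65 (6.62 ± 1.28, adjusted p = 0.0026, 5.48 without GF 3). DNAH17 had 0 and 3 counts in the control libraries and was 80.4-fold higher (27.2 to 392), 41.9-fold higher (14.2 to 204) without control 1 and at least 38.4-fold higher without control 2. TEKT2 was at 0 in both control libraries and was at least 69.5-fold higher in GF (adjusted p = 0.00648). Without GF 3 the TEKT2 bound was 23.9-fold, and without control 1 or control 2 it was 36.3-fold or 33.2-fold with no call (adjusted p = 0.06 and 0.0704). CFAP99 and CFAP206 did not pass against FO but were higher in GF than in control testis (3.15 ± 0.71, adjusted p = 0.00628, and 2.40 ± 0.64, adjusted p = 0.0148), calls that ended without control 1 or control 2 (adjusted p up to 0.114 and 0.161). The call of CFAP206 also ended with the FO libraries out of the fit (adjusted p = 0.0606). In 9 genes, CFAP77, CFAP157, DNAI1, ODF1, ODF3, ODF3L1, ODF3L2, RSPH6A and SPAG4, both the FO and the control libraries held at most 3 counts over the group while GF held more. Some of them were low in GF too, with 13 counts over GF for CFAP77 and 21 for CFAP157. How many of all genes met the same condition was not counted, so no excess is read from this number. CFAP47, a central apparatus protein, had 18 and 24 counts in the control libraries, 2, 1, 0 and 0 in GF and 1, 7, 2 and 2 in FO, and was lower in GF than in control testis (adjusted p = 0.0184). That call ended without either control library (adjusted p up to 0.151) and with the FO libraries out of the fit (0.0597).

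FO grafts and control testis, whose spermatid markers summed to at most 6.68 CPM, differed in 6 axoneme genes. Of 74 tested, 3 were higher in FO and 3 lower, where 8.12% and 10.6% of all genes tested were. In control testis, DNAAF1 stood at 12.7 and 12.2 CPM, SPAG17 at 8.72 and 8.9 CPM and CFAP45 at 3.78 and 3.17 CPM, all above every FO library. They were lower in FO, with log2 fold changes of -2.94 ± 0.80 (adjusted p = 0.0208), -2.91 ± 0.71 (0.0121) and -3.26 ± 0.93 (0.0259). Higher in FO were DNAH3, given above, CFAP46 at 37.6, 34.3, 26.2 and 40.2 CPM in FO, with 11.2 and 6.79 CPM in control testis (1.94 ± 0.55, adjusted p = 0.0242), and CFAP99 at 4.45, 4.99, 3.56 and 5.5 CPM in FO, with 1.32 and 0.754 CPM in control testis (2.14 ± 0.69, adjusted p = 0.0449). Of these 6 calls only that of DNAH3 held without any single library. All the others ended without control 1 or control 2. Those of CFAP45, CFAP46 and CFAP99 also ended without FO 1 or FO 4, of CFAP45, CFAP99 and DNAAF1 without FO 2, of DNAAF1 without FO 4 and of CFAP99 without FO 3. They reached adjusted p up to 0.349 for CFAP99, 0.247 for CFAP46, 0.118 for CFAP45, 0.0939 for DNAAF1 and 0.079 for SPAG17. With no filter on low counts the calls of DNAAF1 (adjusted p = 0.0747) and CFAP99 (0.0758) ended, and that of CFAP99 also with thinned libraries (0.0711), total counts as scaling (0.0553) or a test against a fold of 1.5 (0.0832), which ended that of CFAP46 too (0.0554). When FO and control testis alone were fitted, leaving out the GF libraries, 47 were tested. Of these 9 were higher and 11 lower, with 3267 and 3333 of all 14472 genes. Among the further genes of that fit was CFAP126, at 33.4, 32.8, 43.1 and 42.9 CPM in FO, with 20.7 and 12.1 CPM in the controls, whose groups did not overlap (1.22 ± 0.41, adjusted p = 0.0514, and 0.00143 without the GF libraries). FO lay wholly above the controls for 17 of the 74 genes and wholly below for 20, with 26.7% and 32.0% over all genes tested.

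The control libraries differed from FO in germ cell and dividing cell transcripts. The meiotic markers summed to 172 and 154 CPM in the control libraries, 46.2 to 64.1 CPM in FO, with 226 to 430.0 CPM in GF, and the 6 cell division genes to 688 and 778 CPM in the control libraries and 22.3 to 52.3 CPM in FO. Spermatogonial markers (8 genes) summed to 204 and 198 CPM in control testis and 253 to 322 CPM in FO, but 5 of the 8 were lower in FO, 1 was higher and 2 did not pass, with a median log2 fold change of -3.15. The higher gene, ID4, stood at 216, 106, 92.3 and 118 CPM in FO, while the control libraries had 8.39 and 5.73 CPM (log2 fold change 4.23 ± 0.44, adjusted p = 4.44e-05). The lower were DDX4, DAZL, MAEL, UTF1 and GFRA1. The multiciliated epithelium sums are given above. The part of these lists in the control levels of DNAAF1, SPAG17 and CFAP45 was not tested. CFAP52, with 25 and 26 counts in control testis and 1, 5, 5 and 1 in FO, and SPAG5, with 68 and 115 and 6, 14, 11 and 13, lay above every FO library in the controls without passing (-2.54 ± 1.06, adjusted p = 0.114 and -2.53 ± 0.88, adjusted p = 0.0603). Both passed without GF 4, which enters this fit through the shared estimate of spread (adjusted p = 0.00867 and 0.000726).

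**Figure D5:**
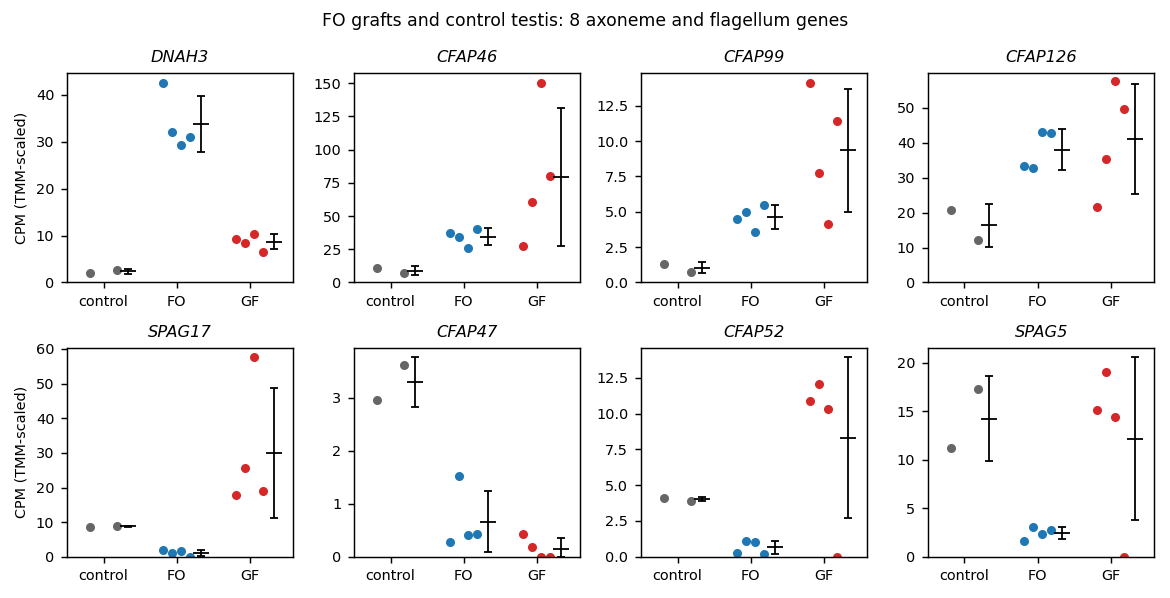
CPM (TMM-scaled) of 8 genes in each library (points), by group (control n = 2, FO n = 4, GF n = 4), with the mean and SD as black bars, cut at 0 where the SD exceeds the mean. DNAH3 is highest in FO, CFAP46, CFAP99 and CFAP126 lie higher in FO than in control testis, and SPAG17, CFAP47, CFAP52 and SPAG5 lie higher in control testis than in FO.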

How the data were processed

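Per the labels' protocols, RNA was isolated with Trizol and made into QuantSeq libraries. The authors deposited a table of whole-number, unnormalized counts for each gene name. Sscrofa11.1 and DESeq2 1.42.0 are listed in the submitters' processing notes without a stated use. The sources used here do not name an aligner or a counting program, or say how strand was handled. Columns were matched to sample titles by group letters and number, with columns named F taken as FO. All 81 genes matched the RefSeq table of Sscrofa11.1 by symbol, which gave coordinates.

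Genes with enough counts (filterByExpr, minimum count 10) were scaled with TMM factors and tested over the whole table with the quasi-likelihood F test of edgeR 4.0.16 in R 4.3.3, with robust estimation. A Benjamini-Hochberg adjusted p under 0.05 over all genes made a call. GF versus FO used the 8 grafts, and the comparisons with control testis all 10 libraries. A log2 fold change is given ± its SE. Where the lower group held 1 to 3 counts, a ratio of pooled counts with an exact 95% interval is given, and at 0 a bound against 3 counts over the group. The code was tested on simulated data. Alternatives were DESeq2 1.42.0, scaling by RLE or total counts, a fit without the filter or with a term for replicate number, fits with other libraries, a test against a fold of 1.5, thinning to the lowest total, and leaving libraries out. The members, roles and lists were chosen with earlier results of these data known. Every gene of the rule may be named, and other genes come from the lists. No sequence is shown.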

Additional observations from a re-analysis of the deposited data

Results flagged for a closer look

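In a group of 4, a library was singled out when its gap to the next as a share of the group's range exceeded Dixon's 95% critical value, for genes with at least 20 counts in the group. This gave 13 of 120 groups. The chance rate of about 5 in 100 holds for normally distributed values, which CPM values at or near 0 need not be. No excess over chance is therefore read from these numbers. In GF 3, the highest library stood apart for TEKT2 (65.1 CPM, next 7.39), TEKT1 (42 CPM, next 5.22), RSPH6A (42.4 CPM, next 6.85), DNAH10 (30.7 CPM, next 13.3), DNAH9 (27.2 CPM, next 16.8) and DNAH11 (7.58 CPM, next 0.642). In GF 4, DNAH5 stood apart as highest (8.97 CPM, next 1.44), and CFAP52 as lowest, at 0 CPM with 10.3 CPM next. In FO, the highest library stood apart for ROPN1L in FO 2 (8.25 CPM), SPAG6 in FO 2 (2.17 CPM) and DNAH1 in FO 4 (4.86 CPM), and the lowest in FO 3 for CFAP97 (34.1 CPM) and SPAG16 (5.23 CPM).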

How the results depend on the processing

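No called gene changed direction under any alternative run. DESeq2, RLE and total-count scaling ended 1 call, that of CFAP99 in FO versus control testis with total counts. Leaving out 1 library at a time gave 25 to 39 genes higher and 1 to 2 lower in GF than in FO, 9 to 41 higher and 0 to 2 lower in GF than in control testis, and 1 to 5 higher and 0 to 5 lower in FO than in control testis. Over all genes, the fits of GF versus FO without 1 library gave 1887 to 2694 higher and 1015 to 2148 lower. Without FO 1 and GF 3 the count higher in GF than in FO fell from 32 to 20, and that over all genes from 2419 to 1369. The axoneme and flagellum genes lower in GF than in control testis then numbered 3, with 1797 of all 15449 genes. Without GF 3 and GF 4 that count was also 3, with 2805 of all 15305 genes. FO versus control testis then gave 9 higher and 11 lower of 67 tested, with 3142 and 3368 of all 15305 genes. With other libraries in or out of the fit, 46 genes were higher and 2 lower in GF than in FO (74 tested). In GF against control testis 21 were higher and 0 lower (72 tested). In FO against control testis 9 were higher and 11 lower (47 tested). The counts over all genes in these fits are given above. DESeq2 gave 2 genes lower in GF than in FO and 5 higher in FO than in control testis, with 2272 of all 13782 and 1883 of all 15877 genes. A test against a fold of 1.5 gave 1 higher in FO than in control testis, with 822 of all 15877 genes. It ended 8 calls in GF versus FO, those of AKAP3, CFAP44, CFAP46, CFAP70, DNAAF2, DNAH12, DNAI2 and SPAG1. In GF versus control testis it ended 10. Over all genes, the numbers higher in GF fell from 2419 to 1547 against FO and from 2221 to 1516 against control testis. Without the filter 44 genes were higher in GF than in FO (80 tested), 32 in GF than in control testis, and 2 were higher and 2 lower in FO than in control testis. Against control testis, 2010 of all 22701 genes were then higher in GF, and 1169 were higher and 1700 lower in FO. The cause of these changes was not tested. Same-numbered GF and FO libraries correlated at 0.073, 0.252, 0.093 and 0.121 over deviations from group means, and differently numbered ones at -0.176 to 0.133. GF 1 and GF 4 correlated better with other numbers (0.133 and 0.132). These values do not settle whether the numbers pair samples. The labels do not say that they do, and the numbers were not taken as pairs. With the replicate number as a block, 28 genes were higher and 2 lower in GF than in FO, 26 higher and 0 lower in GF than in control testis, and 3 higher and 4 lower in FO than in control testis. Over all genes the block gave 2273 higher and 2062 lower of 13782 in GF versus FO. Against control testis it gave 1726 and 1556 of 15877 for GF, and 1474 and 1745 for FO. Depth limits genes of few counts: 23 of the 80 with counts were not tested in GF versus FO, and 3 counts set the bounds given.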
